A study of Mus musculus with 39 samples.

Results

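The genes described here are 9 genes of MHC class II antigen presentation, H2-Aa, H2-Ab1, H2-Eb1, Cd74, H2-DMa, H2-DMb1, H2-DMb2, H2-Oa and Ciita. They were taken by symbol from the deposited counts, where all 9 stand among the 24537 rows for kidney, liver and lung and among the 52508 rows for skin. RNA was read at the 3′ ends of transcripts by a bulk form of MARS-seq in 39 libraries, each from 1 tissue of a perfused mouse. Every mouse, the young and vehicle-treated ones included, was C57BL/6 and Prf1-/-, so it lacked perforin, the pore-forming protein of cytotoxic lymphocytes, in all cells. Young mice were 3 months old and untreated. Old mice were 20 months old and had received ABT-737, an inhibitor of anti-apoptotic BCL-2 family proteins, at 25 mg/kg, or vehicle alone, on 2 days of each month over 2 months from the age of 18 months. Each tissue had 4 young (3 in skin), 3 vehicle-treated and 3 ABT-737-treated libraries, numbered 3, 4 and 5 in both old groups. Drug-treated replicates 4 and 5 carry the treatment labels ABT-738 and ABT-739, while their titles read ABT, and they were placed in the ABT-737 group. Age and vehicle injection cannot be told apart between vehicle-treated and young mice, and no old untreated mouse and no Prf1+/+ mouse was analysed here. Below, a change with age and an effect of age refer to vehicle-treated against young mice.

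MHC class II molecules are pairs of an alpha and a beta chain that show peptides from ingested proteins to CD4+ T cells. They are made mainly by dendritic cells, macrophages and B cells. H2-Aa and H2-Ab1 encode the alpha and beta chains of I-A, and H2-Eb1 encodes the beta chain of I-E, which C57BL/6 mice do not display because their gene for its alpha chain is defective. Cd74, the invariant chain, fills the groove of new class II molecules and guides them to endosomes. There the DM heterodimer, of H2-DMa with H2-DMb1 or H2-DMb2, exchanges the remnant of Cd74 for other peptides, and the DO heterodimer, which contains H2-Oa, restrains DM, chiefly in B cells. Ciita is the transactivator on which expression of the others depends. It binds no DNA itself but is recruited by RFX and NF-Y proteins on the X and Y boxes of class II promoters, and interferon-gamma is its best known inducer outside professional antigen-presenting cells.

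Promoter stretches are shown because the X and Y boxes tie these genes to the same regulator. RefSeq entries of 250 bases before the start site (GRCm38.p6) matched 6 of the 9 genes, with 2 start sites for H2-DMa, and H2-Ab1, Ciita and Cd74 had no entry. In the lines below, capitals mark GNAAC, an X-box core, and GATTGG, a Y box. The first line lies at chr17:34287824-34287933 on the minus strand, the second at chr17:34305757-34305866 and the third at chr17:34092293-34092340, both on the plus strand.

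H2-Aa: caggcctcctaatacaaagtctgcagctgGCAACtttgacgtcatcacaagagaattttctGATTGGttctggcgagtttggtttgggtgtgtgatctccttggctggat

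H2-Eb1: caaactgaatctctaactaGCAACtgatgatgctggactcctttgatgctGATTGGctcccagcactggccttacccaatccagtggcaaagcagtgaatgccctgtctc

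H2-Oa: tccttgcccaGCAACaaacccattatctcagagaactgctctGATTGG

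The stretches of H2-Aa and H2-Eb1 end at the base before the RefSeq start site and cover no annotated exon, while 1 base of the H2-Oa stretch falls in an exon annotated by GENCODE. The starts of GNAAC and GATTGG stood 32 bases apart in H2-Aa, 31 in H2-Eb1, 32 in H2-Oa and 32 in H2-DMb1. A search of both strands for GNAAC followed by GATTGG at 25 to 45 bases, a spacing chosen after these sequences had been read, matched 325 of 32851 promoters of the same length, or 0.989%. GATTGG alone was in 4783 promoters, or 14.6%, and GNAAC alone in 26142, or 79.6%. H2-DMb2 held GATTGG at position -91 with no GNAAC at that spacing, and H2-DMa held GATTGG only upstream of its second start site, at position -199. A match describes letters and is no shown site of binding.

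**Figure D1:**
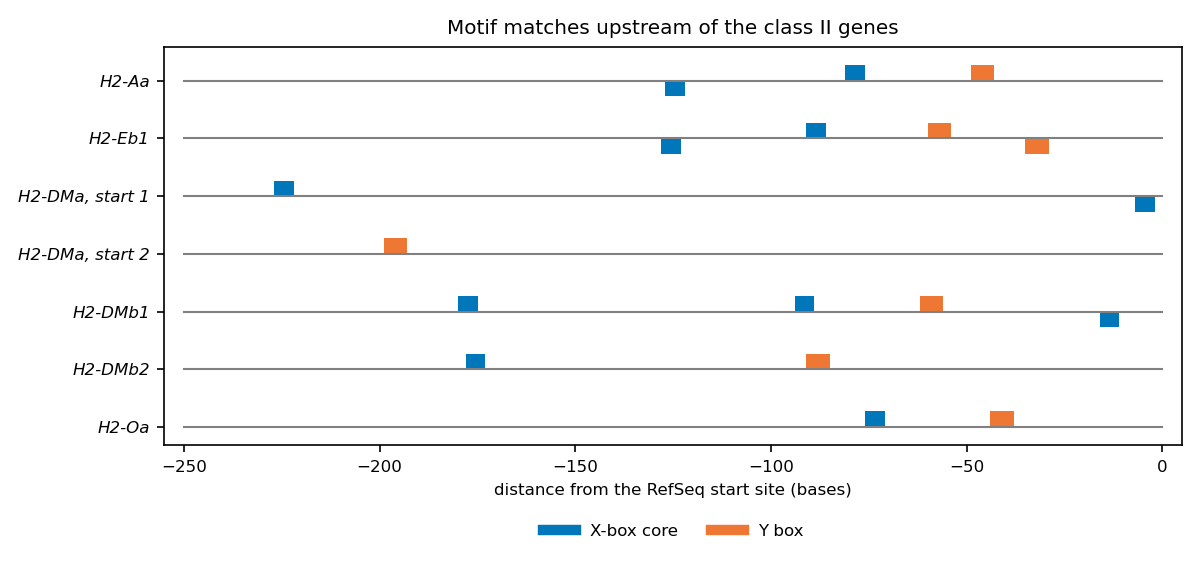
Matches to GNAAC (blue) and GATTGG (orange) in the 250 bases before each RefSeq start site of 6 class II genes, with the distance from the start site in bases on the x axis. Blocks above a line are on the sense strand of the gene and blocks below it on the other strand. H2-Aa, H2-Eb1, H2-DMb1 and H2-Oa show a blue and an orange block 31 or 32 bases apart on the sense strand.

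Library totals ranged from 1431814 to 3513311 counts in kidney, 223957 to 891116 in liver, 1046508 to 2600092 in lung and 1493411 to 3842808 in skin. Levels are given in CPM, counts scaled to the TMM-adjusted library size, and 3 counts, the most that a count of 0 allows, correspond to 0.827 to 2.05 CPM in a kidney library, 3.51 to 13.1 in liver, 1.12 to 3.16 in lung and 0.778 to 2.17 in skin. These limits cover counting error only. A gene was called where edgeR's quasi-likelihood test gave a Benjamini-Hochberg adjusted p under 0.05 over all genes tested in the tissue. Prf1 itself was counted at 1 to 11 reads in kidney, 0 to 4 in liver, 1 to 68 in lung and 15 to 169 in skin libraries, so the counts do not show the genotype, which was taken from the labels. The markers of each labelled tissue summed to at least 9845 CPM in its own libraries and to at most 521 CPM in any library of another tissue. By GENCODE vM21 (GRCm38), the class II genes other than Cd74 and Ciita lie on chromosome 17 between 34092340 and 34316674, and Ciita lies on chromosome 16 from 10480059 to 10528418.

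**Figure D2:**
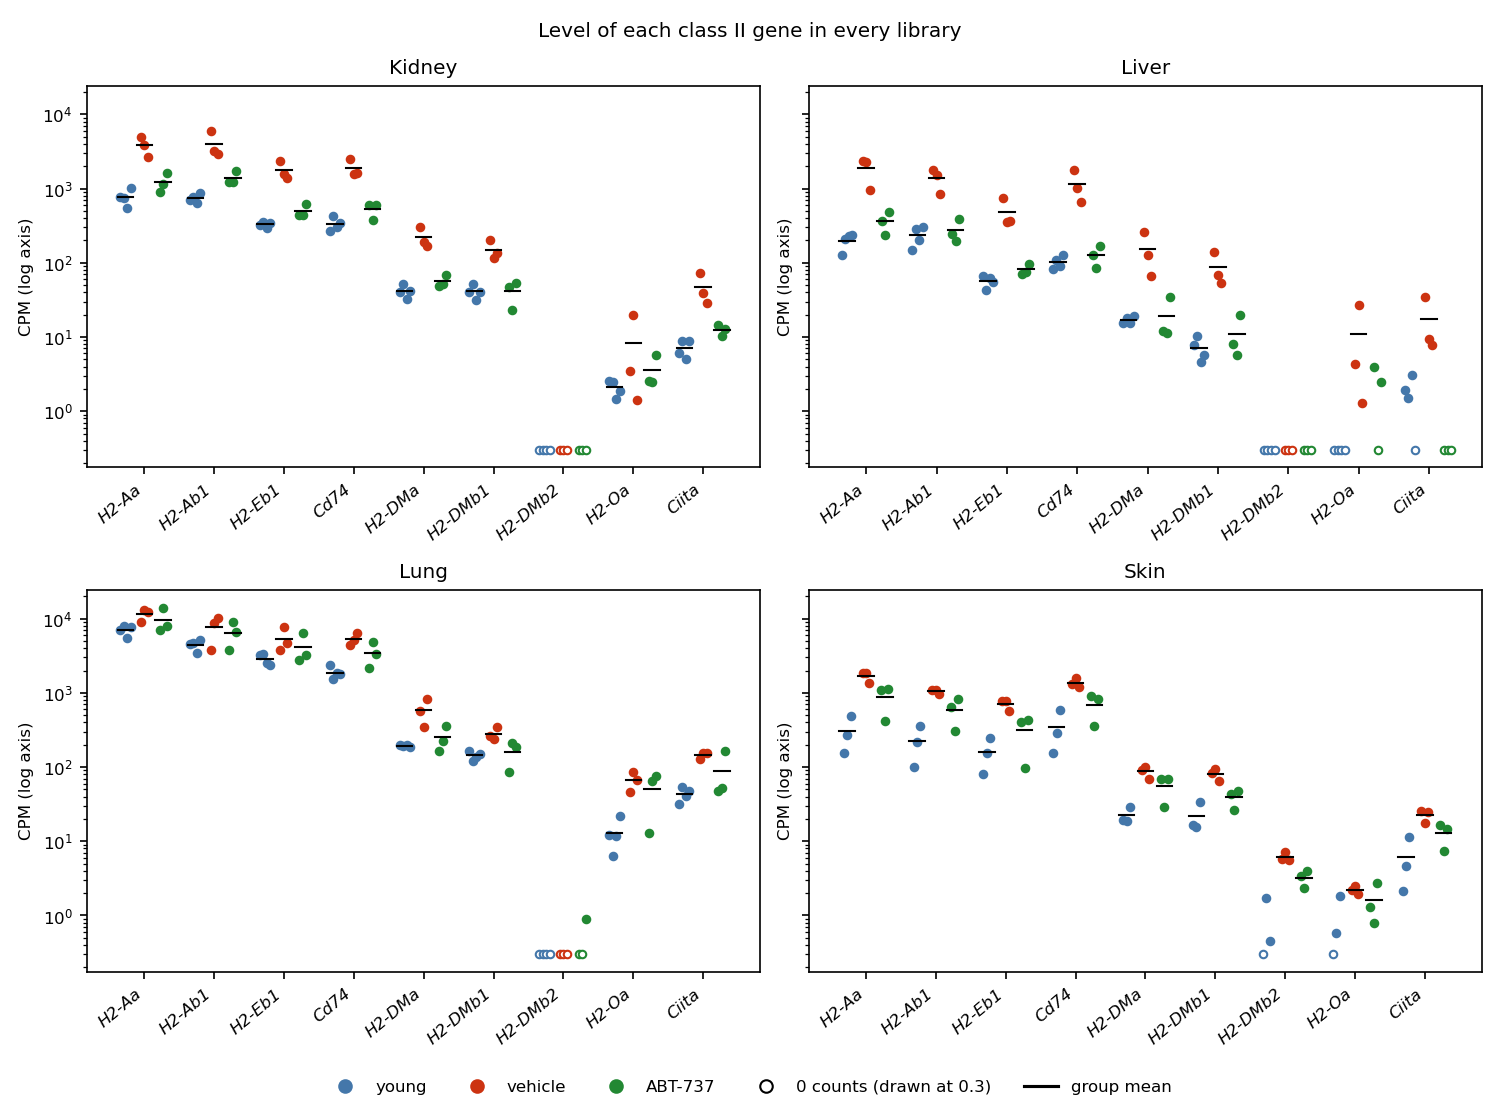
CPM of each class II gene (log axis) in every library of kidney, liver, lung and skin, with young mice in blue, vehicle-treated old mice in red and ABT-737-treated old mice in green. Black bars are group means, drawn where every library of the group had counts, and open circles at 0.3 are libraries with 0 counts. In kidney and liver the red points of the chain genes, Cd74, H2-DMa, H2-DMb1 and Ciita stand above the others of the same gene, and in lung the 3 groups are closer.

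In the kidney, class II transcripts were several-fold higher in old vehicle-treated than in young mice, and lower again in old mice given ABT-737. Of the 9 genes, 7 passed the filter on low counts. All 7 were higher in vehicle-treated than in young mice, against 13.3% of the 11123 genes tested that were called in either direction, with log2 fold changes from 1.87 to 2.73 and a median of 2.44 where the median over all genes tested was 0.01. The same 7 were lower with ABT-737 than with vehicle, where 1.35% of all genes were called, with log2 fold changes from -1.98 to -1.53 and a median of -1.86. In this bulk tissue, a change in the number of class II-expressing cells and a change in RNA per cell cannot be told apart.

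H2-Ab1, the I-A beta chain, stood at 706, 763, 643 and 867 CPM in the 4 young kidneys, 5987, 3172 and 2930 in vehicle replicates 3, 4 and 5, and 1227, 1222 and 1730 in ABT-737 replicates 3, 4 and 5. The vehicle-treated mice were thus 5.41-fold higher than young mice (log2 2.44 ± 0.23 SE, edgeR adjusted p = 5.33e-06), and ABT-737-treated mice were lower than these (log2 -1.53 ± 0.24, edgeR adjusted p = 0.00365), with no overlap between any 2 of the 3 groups. H2-Aa had 553 to 1010 CPM in the young, 2671 to 4945 with vehicle and 905 to 1636 with ABT-737. Its lowest ABT-737-treated mouse lay within the young range, and its log2 fold change with ABT-737 was -1.65 ± 0.26 (edgeR adjusted p = 0.00365). H2-Eb1, the I-E beta chain, was at 323, 357, 297 and 339 CPM in young, 2359, 1593 and 1386 in vehicle-treated and 444, 442 and 612 in ABT-737-treated mice. It had the smallest error of the 7 genes and the lowest adjusted p in both comparisons (7.09e-07 for vehicle against young and 0.000191 for ABT-737 against vehicle, edgeR).

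Cd74, the chaperone of these chains, was at 267, 433, 301 and 339 CPM in young kidneys, 2514, 1576 and 1622 with vehicle and 596, 380 and 597 with ABT-737. The vehicle-treated group did not overlap either of the others, and the log2 fold changes were 2.51 ± 0.21 for vehicle against young and -1.86 ± 0.23 for ABT-737 against vehicle (edgeR adjusted p = 2.1e-06 and 0.000504). The DM genes, which edit the bound peptide, behaved alike at a lower count. H2-DMa was at 40.3, 51.3, 32.8 and 41.1 CPM in young, 306, 191 and 169 with vehicle and 49.3, 52.0 and 68.0 with ABT-737. Its fall with ABT-737 was the largest of the 7 in fitted value, at -1.98 ± 0.23 (edgeR adjusted p = 0.000337). H2-DMb1 was at 31.9 to 51.8 CPM in young, 114 to 200 with vehicle and 23.3 to 54.0 with ABT-737, where the last range spans the young one.

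Ciita, the transactivator, was at 6.00, 8.82, 4.98 and 8.77 CPM in young kidneys (14 to 32 counts), 72.2, 39.0 and 29.1 with vehicle (57 to 184 counts) and 14.4, 10.4 and 13.0 with ABT-737 (21 to 28 counts). Its rise was the largest of the 7 in fitted value, at 2.73 ± 0.30 (edgeR adjusted p = 1.99e-05), and it fell with ABT-737 by 1.91 ± 0.32 on the log2 scale (edgeR adjusted p = 0.00498). All 7 genes tested were highest in vehicle replicate 3. The counts on all 9 genes made up 0.194 to 0.258% of a young kidney library, 0.895 to 1.61% with vehicle and 0.314 to 0.453% with ABT-737.

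The last 2 genes differed from the rest. H2-Oa did not pass the filter and had 4 to 9 counts in young kidneys and 5, 5 and 11 with ABT-737, but 9, 29 and 3 in vehicle replicates 3, 4 and 5. The high library was vehicle replicate 4, not replicate 3. H2-DMb2 had 0 counts in all 10 kidney libraries. Its RefSeq model in the deposited counts ends 460 bases before the 3′ end that GENCODE gives, so reads of the last part of the transcript may not have been counted. The close likeness of H2-DMb2 to H2-DMb1 also makes the split of reads between these 2 genes uncertain. The Ciita model for kidney, liver and lung ends 778 bases short, so Ciita counts there may be too low as well. None of this was tested.

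Other genes of the pathway were mostly not called in kidney. Of 15 fixed in a list that covers proteases, DO and I-E partners, promoter proteins and ubiquitin ligases, 12 were tested and only Ctss was higher with age and lower with ABT-737. Ctss encodes cathepsin S, which degrades Cd74, and was at 21.3 ± 4.13 CPM in the young (SD, n = 4), 126 ± 48.8 with vehicle (SD, n = 3) and 57.5 ± 12.8 with ABT-737 (SD, n = 3). The RFX and NF-Y genes, whose products occupy the X and Y boxes, were not called in any comparison within a tissue. Irf1, a transcription factor induced by interferon-gamma, was higher with vehicle than in young kidneys (log2 2.22 ± 0.23, edgeR adjusted p = 1.14e-05) and lower with ABT-737 (log2 -1.60 ± 0.25, edgeR adjusted p = 0.00308). Cd40, the 1 costimulation gene tested, was higher with age.

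Pan-leukocyte, macrophage and T cell markers moved with the class II genes in kidney. The summed level of 7 pan-leukocyte markers was 55.9 to 68.1 CPM in young, 239 to 325 with vehicle and 107 to 127 with ABT-737, and 5 of 5 tested were higher with age and 4 lower with ABT-737. Macrophage markers had 7 of 7 tested higher with age and 4 lower with ABT-737, and their sum was 217 to 291, 785 to 1342 and 318 to 540 CPM in the same order. T cell markers had 5 of 5 higher and 3 lower. Plasma cell markers had 3 of 3 higher with age and 0 lower with ABT-737. Their sum was 53.0 to 95.1 CPM with vehicle and 51.9 to 58.1 with ABT-737. Of the B cell markers 2 of 2 tested were higher with age and 0 lower with ABT-737, with 8 in the list and Pax5 at 0 in all kidney libraries. Of the dendritic cell markers 1 of 2 tested, Itgax, was higher with age and 0 were lower with ABT-737. Endothelial markers, of which young kidneys had 167 to 180 CPM and vehicle-treated ones 163 to 233, had 1 of 6 higher, Tie1. There were 33.4 to 45.1 class II counts for each count on a pan-leukocyte marker in young kidneys, 28.8 to 68.5 with vehicle and 27.9 to 37.1 with ABT-737. These ratios overlapped in all 3 groups, as did those to macrophage markers (8.59 to 9.92, 7.91 to 17.4 and 8.73 to 10.3). The class II counts for each dendritic cell marker count did not overlap between young and vehicle-treated kidneys, at 104 to 140 and 199 to 390, with 112 to 275 in ABT-737-treated ones, over 24 to 107 counts on these markers in a library. The part of cell number in the class II change was not tested.

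**Figure D3:**
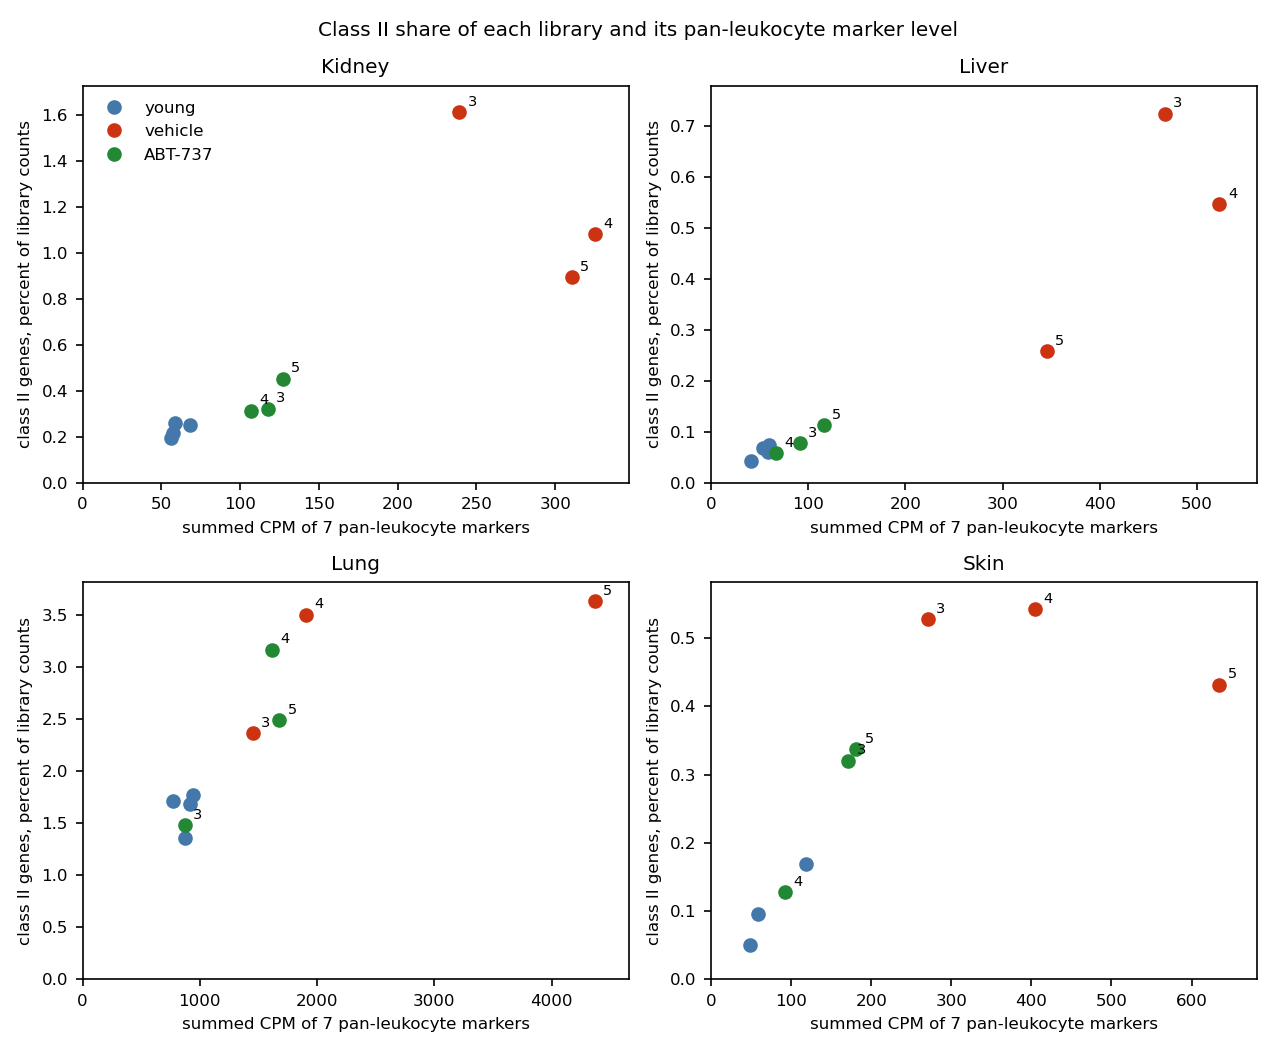
Percent of each library's counts that fell on the 9 class II genes (y axis) against the summed CPM of 7 pan-leukocyte markers (x axis), 1 point for each library, with replicate numbers beside the old mice and separate axes for each tissue. In kidney and liver the vehicle-treated mice (red) stand apart from young (blue) and ABT-737-treated mice (green) on both axes. In lung, vehicle replicate 5 is far to the right at 4369 CPM while its class II share, 3.63%, is close to that of vehicle replicate 4.

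In the liver, class II transcripts were again highest in old vehicle-treated mice and lower in young and ABT-737-treated mice. Of the 9 genes, 6 were tested, all 6 were higher with vehicle than in young mice (22.6% of 5583 genes called) and all 6 were lower with ABT-737 than with vehicle (3.85% called). The median log2 fold change was 3.15 with age, from 2.55 to 3.46, and -2.68 with ABT-737, from -3.18 to -2.33, against medians of 0.02 and -0.03 over all genes tested. Liver libraries were the shallowest, so these values rest on fewer counts than in kidney.

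Cd74 changed the most in both comparisons. It was at 83.3, 109, 90.6 and 129 CPM in young livers, 1754, 1020 and 660 with vehicle and 127, 85.4 and 166 with ABT-737. This was 11.0-fold higher with vehicle than in young mice (log2 3.46 ± 0.32, edgeR adjusted p = 5.42e-06), and the ABT-737-treated mice, at -3.18 ± 0.36 against vehicle (edgeR adjusted p = 0.0002), overlapped the young ones. H2-Aa was at 126, 209, 229 and 234 CPM in young, 2370, 2271 and 958 with vehicle and 361, 237 and 490 with ABT-737. All 3 ABT-737-treated livers were above all 4 young livers in H2-Aa, yet that difference, 0.86 ± 0.34, did not pass (edgeR adjusted p = 0.134). H2-Ab1 was at 147 to 305 CPM in young, 840 to 1767 with vehicle and 195 to 384 with ABT-737, and H2-Eb1 was at 43.2 to 65.8, 354 to 746 and 71.3 to 96.6 CPM.

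The DM genes had few counts outside the vehicle group. H2-DMa was at 15.4 to 19.2 CPM in young livers (8 to 12 counts), 262, 129 and 66.8 with vehicle and 11.9, 11.4 and 34.7 with ABT-737 (3, 6 and 14 counts). H2-DMb1 had 3 to 7 counts in young, 32, 58 and 41 with vehicle and 2, 3 and 8 with ABT-737, a log2 fold change with age of 3.40 ± 0.43 (edgeR adjusted p = 7.82e-05). Without ABT-737 replicate 4, the fall with ABT-737 was called for 4 of the 6 genes, as H2-DMa and H2-DMb1 reached adjusted p of 0.053 and 0.0563 (edgeR).

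The other genes were not tested in liver. Ciita had 1, 1, 2 and 0 counts in young livers, 8, 8 and 6 with vehicle and 0 in all 3 with ABT-737, which is at least 2.08-fold lower with ABT-737 at a floor of 3 counts per library. This bound rested on vehicle replicate 3, and without that library it was 1.02. H2-Oa had 0 counts in all young livers, 1, 23 and 1 with vehicle and 1, 0 and 1 with ABT-737. As in kidney, the high library was vehicle replicate 4. H2-DMb2 had 0 counts in all 10 libraries.

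Among the other pathway genes tested in liver, 3 of 8 were higher with age, Ctss, Ifi30 and Lgmn, and 2, Ctss and Lgmn, were lower with ABT-737. These encode cathepsin S, the lysosomal thiol reductase GILT and the endopeptidase legumain, which prepare antigens for loading. Lgmn was at 44.1 ± 7.69 CPM (SD, n = 4) in young, 122 ± 33.1 (SD, n = 3) with vehicle and 48.9 ± 9.86 (SD, n = 3) with ABT-737. Irf1 was higher with age (log2 1.91 ± 0.35, edgeR adjusted p = 0.00114) and lower with ABT-737 (log2 -1.52 ± 0.39, edgeR adjusted p = 0.0399). Macrophage markers had 8 of 8 higher with age and 7 lower with ABT-737, with sums of 422 to 595 CPM in young, 2182 to 2366 with vehicle and 358 to 678 with ABT-737. Pan-leukocyte markers had 3 of 3 tested called in both directions, with sums of 40.7 to 59.5, 345 to 523 and 66.4 to 116 CPM. Batf3 of the dendritic, Thy1 of the T cell and Pecam1 of the endothelial markers, the 1 gene tested of each list, were higher with age and lower with ABT-737. Sdc1 was higher with age, was not called between ABT-737 and vehicle, and was the 1 of 5 plasma cell markers tested. As Tnfrsf17 of that list had 0 counts in all liver libraries, a change in plasma cells cannot be read from Sdc1 alone. Class II counts for each pan-leukocyte count were 10.4 to 12.6 in young, 8.55 to 15.2 with vehicle and 9.09 to 10.3 with ABT-737, with overlap of young and vehicle-treated livers. Young and vehicle-treated livers also overlapped for each macrophage marker count (1.06 to 1.29, 1.25 to 3.24 and 1.70 to 1.95). The same held for each dendritic cell marker count (39.0 to 98.5, 56.1 to 203 and 64.4 to 209). Young and ABT-737-treated livers overlapped in the dendritic ratio but not in the pan-leukocyte and macrophage ratios. The part of these cells was not tested.

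**Figure D4:**
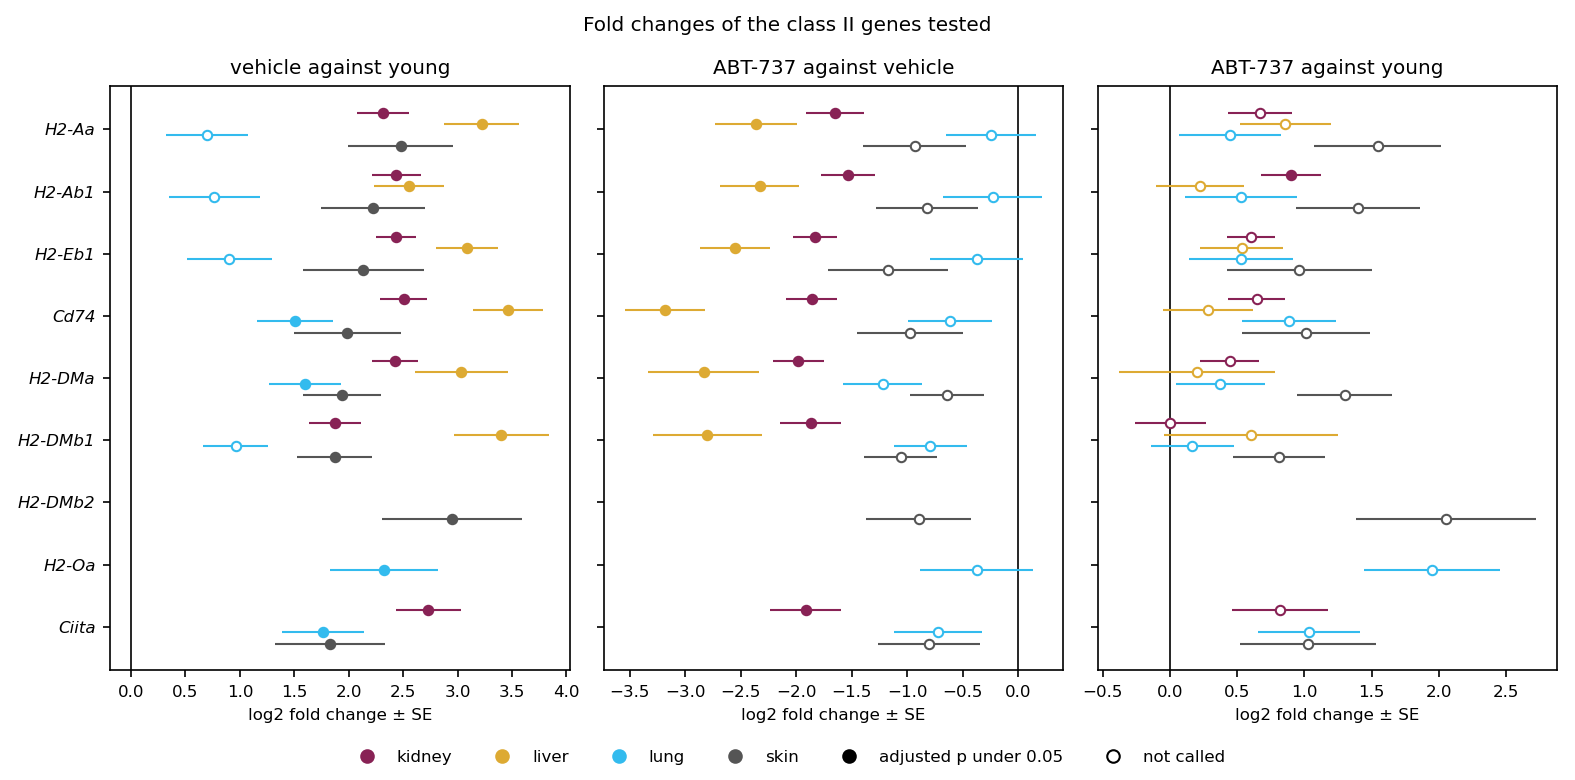
Log2 fold change ± SE of each class II gene tested, for vehicle against young, ABT-737 against vehicle and ABT-737 against young, with 1 colour for each tissue. Filled points passed an adjusted p of 0.05 (edgeR) and open points did not. Liver Cd74 reaches 3.46 in the first panel and -3.18 in the second, and H2-Ab1 in kidney is the only filled point of the third.

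In the lung, where class II was high in young mice already, part of the set was higher with age. Of 8 genes tested, Cd74, H2-DMa, H2-Oa and Ciita were higher in vehicle-treated than in young mice, 4 of 8 against 12.9% of 11949 genes, with a median over the 8 of 1.23 (0.04 over all genes tested). The chain genes and H2-DMb1 did not pass. None of the 8 passed between ABT-737 and vehicle (edgeR), where 0% of all genes did. An unadjusted p under 0.05 was found for 2 of the 8 and for 16.1% of all genes, and DESeq2 called 1, H2-DMa, and 3.05% of all genes.

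H2-Ab1 was at 4534, 4759, 3490 and 5139 CPM in young lungs, 3788, 8828 and 10227 with vehicle and 3777, 8963 and 6693 with ABT-737. Vehicle replicate 3 fell inside the young range and the 3 groups overlapped (log2 0.77 ± 0.42 with age, edgeR adjusted p = 0.234). H2-Aa was at 5494 to 7958 CPM in young, 8936 to 13044 with vehicle and 6964 to 14073 with ABT-737. H2-Eb1 was at 2375 to 3331, 3728 to 7704 and 2751 to 6426 CPM. In both, the vehicle-treated mice stood above all young mice but the fitted differences, 0.69 ± 0.38 and 0.90 ± 0.39, did not pass (edgeR adjusted p = 0.232 and 0.137).

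Cd74 was at 2343, 1540, 1830 and 1794 CPM in young lungs, 4399, 5100 and 6496 with vehicle and 2189, 4858 and 3374 with ABT-737, 2.84-fold higher with vehicle than in young (log2 1.51 ± 0.35, edgeR adjusted p = 0.0138). H2-DMa was tight in young mice, at 199, 193, 197 and 186 CPM, and was at 571, 350 and 839 with vehicle and 166, 228 and 360 with ABT-737. It rose by 1.60 ± 0.33 on the log2 scale with age (edgeR adjusted p = 0.0073). In a fit blocked on the replicate number, which nothing in the labels ties between young and old mice, this rise was 1.25 ± 0.37 (edgeR adjusted p = 0.0917), and 0 of the 4 lung genes kept their call with age, with 2.79% of all genes called. The log2 fold change of H2-DMa with ABT-737 was -1.22 ± 0.36 (edgeR adjusted p = 0.136). An alternative fit of the old lungs blocked on the replicate number gave -1.21 ± 0.25 (edgeR adjusted p = 0.0117). Whether equal numbers formed pairs of old mice is not known. H2-DMa was the 1 of 8 genes called in that fit for ABT-737 against vehicle, which called 7.31% of all genes. H2-DMb1, at 122 to 166, 236 to 345 and 85.0 to 212 CPM, narrowly missed the threshold with age (log2 0.96 ± 0.30, edgeR adjusted p = 0.0504).

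Ciita was at 31.4, 53.5, 40.7 and 47.8 CPM in young lungs, 129, 154 and 157 with vehicle and 47.7, 51.6 and 163 with ABT-737. The third ABT-737-treated mouse was thus as high as the vehicle-treated mice while the other two were within the young range. Without this library, ABT-737 replicate 5, Ciita was called lower with ABT-737 (log2 -1.58, edgeR adjusted p = 0.0322), with 122 of all genes called. H2-Oa, the DO alpha chain, was at 12.3, 6.26, 11.9 and 21.8 CPM in young, 45.6, 86.6 and 66.6 with vehicle and 12.9, 65.3 and 75.6 with ABT-737. It had the largest rise with age of the lung genes, 2.32 ± 0.50 (edgeR adjusted p = 0.00917). H2-DMb2 had 2 counts in ABT-737 replicate 5 and 0 in the 9 other lung libraries. Without young replicate 2 or 3, Cd74 was no longer called with age, and without vehicle replicate 4 or any one of the ABT-737 libraries H2-DMb1 was called as well, so 3 to 5 genes passed.

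Of the 15 other pathway genes, all 15 were tested in lung and 5 were higher with age, H2-Ob, H2-Eb2, Ctss, Lgmn and March1. H2-Ob encodes the beta chain that pairs with H2-Oa and was at 24.9 ± 8.03 CPM (SD, n = 4) in young and 84.1 ± 41.6 (SD, n = 3) in vehicle-treated lungs. March1, a ubiquitin ligase that removes class II from the cell surface, was at 1.59 ± 0.81 and 10.4 ± 4.41 CPM. The partners of class II on T cells and of costimulation had 5 of 5 tested higher with age, Cd4, Lag3, Cd28, Cd86 and Cd40. Ifng, Socs1 and Cd274 were higher with age in lung, the last at 3.75 ± 0.394 CPM (SD, n = 4) in young and 62.6 ± 39.0 (SD, n = 3) in vehicle-treated lungs.

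Leukocyte markers were also higher with age in lung. Pan-leukocyte markers, 4 of 5 tested higher, summed to 768 to 940 CPM in young, 1451, 1902 and 4369 in vehicle replicates 3, 4 and 5 and 873 to 1678 with ABT-737, and T cell markers had 8 of 8 higher with age and reached 2559 CPM in vehicle replicate 5. Macrophage markers had 5 of 8 tested higher, B cell markers 5 of 7 and plasma cell markers 4 of 5, while of 8 dendritic cell markers Flt3, Clec9a and Batf3 were higher and Cd209a lower. There were 15.7 to 23.4 class II counts for each pan-leukocyte marker count in young lungs, 8.07 to 18.7 with vehicle and 13.2 to 21.5 with ABT-737, with overlap of all groups. Young and vehicle-treated lungs also overlapped in the ratio to dendritic cell markers, at 68.4 to 83.6 and 76.5 to 84.0, with 79.1 to 129 for ABT-737. They did not overlap in the ratio to macrophage markers, at 16.4 to 20.1 and 5.83 to 10.02, with 8.72 to 16.8 for ABT-737. Nor did they overlap in the ratio to B cell markers, at 100 to 154 and 55.6 to 84.2, with 42.3 to 141 for ABT-737. The ratio to T cell markers was separate as well, at 92.5 to 129 and 13.8 to 51.8, with 45.3 to 88.7 for ABT-737. Endothelial markers were at 1558 to 1774 CPM in young and 362 to 1266 with vehicle, a range that does not overlap that of the young, yet 0 of the 6 markers, all tested, were called (edgeR), with a median log2 fold change of -0.95. The class II share of the library was 1.36 to 1.77% in young, 2.36 to 3.63% with vehicle and 1.48 to 3.16% with ABT-737.

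In the skin, all 8 genes tested were higher in vehicle-treated than in young mice, where 11.2% of 14224 genes were called, with a median log2 fold change of 2.06 (0.05 over all genes tested). None of the 8 was called between ABT-737 and vehicle (edgeR), where 0% of all genes were. There 7 of the 8 had ABT-737-treated mice all below the vehicle-treated ones, as did 5.81% of all genes tested. Only 1 had an unadjusted p under 0.05, a share close to the 7.97% of all genes, and DESeq2 called 0 (0.423% of all genes). The median over the 8 was -0.91, where it was 0.04 over all genes tested. The calls for the rise with age leaned on single libraries. It was called for 0 of 8 genes without young replicate 1 or young replicate 2, for 3 without vehicle replicate 5 and for 5 without vehicle replicate 3, vehicle replicate 4 or ABT-737 replicate 5. Over all genes those fits called 39, 41, 382, 1158, 1317 and 1098 in the same order, against 1592 with every library. The log2 fold changes of the 8 genes had a median of 1.83 without young replicate 1 and 1.98 without young replicate 2, and H2-Aa stood at 2.16 ± 0.49 and 2.39 ± 0.61 in these fits, with edgeR adjusted p of 0.0767 and 0.0827.

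H2-Aa was at 155, 269 and 486 CPM in young skin, 1843, 1860 and 1363 with vehicle and 1097, 419 and 1139 with ABT-737. The young mice varied among themselves but stayed below all vehicle-treated mice (log2 2.48 ± 0.48, edgeR adjusted p = 0.0186), and ABT-737 replicate 4 lay in the young range. H2-Ab1, at 101 to 355, 966 to 1102 and 306 to 818 CPM, and H2-Eb1, at 81.8 to 245, 571 to 774 and 97.1 to 435, showed the same order. Cd74 was at 157, 288 and 584 CPM in young, 1302, 1594 and 1188 with vehicle and 904, 359 and 814 with ABT-737. In these chain and chaperone genes young replicate 3 was the highest young mouse and ABT-737 replicate 4 the lowest treated one.

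H2-DMa was at 19.0 to 29.1 CPM in young skin, 68.4 to 101 with vehicle and 28.6 to 69.5 with ABT-737, the 1 tested gene whose old groups overlapped. H2-DMb1 was at 15.5 to 33.7, 65.7 to 94.7 and 26.2 to 46.9 CPM, with a log2 difference between ABT-737 and vehicle of -1.06 ± 0.33 (edgeR adjusted p = 0.476). Ciita was at 2.17, 4.60 and 11.4 CPM in young, 25.9, 17.4 and 24.8 with vehicle and 16.6, 7.44 and 14.6 with ABT-737. It was the least certain rise of the 8, at 1.83 ± 0.51 (edgeR adjusted p = 0.0474). H2-Oa had 0, 1 and 4 counts in young, 5, 7 and 7 with vehicle and 5, 2 and 9 with ABT-737, and was not tested.

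H2-DMb2 passed the filter on low counts in skin alone, at 0, 3 and 1 counts in young, 13, 20 and 20 with vehicle and 13, 6 and 13 with ABT-737, and it was called higher with vehicle than in young mice (edgeR adjusted p = 0.0249). The skin counts rest on other gene models than those of the other tissues, which run 2000 bases in the median past the 3′ end of the transcript. The skin model of H2-DMb2 spans 34145313 to 34153553 on the plus strand of chromosome 17 (mm10), past the start of the H2-DMb1 model at 34153072, so reads near that start could be counted for either gene. Levels of the skin table were therefore not set against those of other tissues.

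Pan-leukocyte markers in skin summed to 48.5 to 119 CPM in young, 271 to 635 with vehicle and 92.8 to 181 with ABT-737, and 5 of 5 tested were higher with age. Macrophage markers had 7 of 8 tested higher and T cell markers 4 of 4. B cell markers summed to 1.82 to 2.89, 8.0 to 14.2 and 2.59 to 7.83 CPM, but only 1 of the 8 was tested and it was not called with age. The 1 plasma cell marker tested was not called with age either. The Langerhans cell markers Cd207 and Epcam summed to 59.3 to 68.7, 37.0 to 74.3 and 52.2 to 92.9 CPM in young, vehicle- and ABT-737-treated skin, with overlap of all groups. Ctss, Ifi30 and Lgmn were higher with age, 3 of 11 other pathway genes tested, and Irf1 was higher as well (log2 0.97 ± 0.25, edgeR adjusted p = 0.040). Cd4 was the 1 gene of costimulation and T cell partners tested and was higher with age, and Cd209a was higher among 3 dendritic cell markers tested. Endothelial markers had 2 of 6 higher, Pecam1 and Kdr. The class II share of the library was 0.0493 to 0.169% in young, 0.432 to 0.542% with vehicle and 0.128 to 0.338% with ABT-737. Class II counts for each pan-leukocyte marker count were 11.0 to 16.5, 6.70 to 19.3 and 13.4 to 18.7 in the same order, with overlap of all groups.

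Old mice given ABT-737 were also set against young mice, and these values share the drug-treated libraries with those above. In kidney 1 of 7 genes was called, H2-Ab1, higher by 0.90 ± 0.22 on the log2 scale (edgeR adjusted p = 0.0454), where 2.12% of all genes were called. This call was lost without ABT-737 replicate 3 or 5 or any one of the 4 young replicates. H2-Eb1 was called as well without vehicle replicate 3, where 297 of all genes were called. H2-DMb1 differed least, with 0.00 ± 0.26. In liver 0 of 6 genes were called (edgeR, 8.40% of all genes called), with 1 at an unadjusted p under 0.05 (23.9% of all genes) and 0 by DESeq2 (8.17%). In lung 0 of 8 were called (edgeR, 2.55% of all genes), with 3 at an unadjusted p under 0.05 (20.5%) and 1, H2-Oa, by DESeq2 (6.57%). H2-Oa was the nearest in the edgeR fit, at 1.95 ± 0.50 with an adjusted p of 0.0552. It was called without ABT-737 replicate 3, vehicle replicate 4 or vehicle replicate 5, where 275, 564 and 721 of all genes were called. Ciita was called without ABT-737 replicate 4, where 1399 of all genes were. In skin 0 of 8 were called (edgeR, 5.17% of all genes), with 5 at an unadjusted p under 0.05 (30% of all genes) and 3 by DESeq2 (14.9%). Without ABT-737 replicate 4, 1 was called in skin, with 62 of all genes called. The median log2 difference to young mice was 0.41 over 6 genes in liver, 0.53 over 8 in lung, 0.64 over 7 in kidney and 1.16 over 8 in skin. Over all genes tested it was -0.001, 0.07, 0.009 and 0.10 in the same order. The class II genes tested were not the same in each tissue, and a difference between tissues was not tested for this comparison.

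Across tissues of young mice, class II was highest in lung, then kidney, then liver. The 30 kidney, liver and lung libraries were scaled together for this, which shifts the CPM from those above. H2-Eb1 had 2298 ± 382 CPM in young lung, 295 ± 24.7 in kidney and 77.02 ± 12.8 in liver (SD, n = 4 each). Cd74 had 1498 ± 264, 301 ± 67.4 and 140 ± 27.2 CPM, and H2-DMa had 155 ± 3.45, 37.1 ± 7.17 and 23.2 ± 2.52 CPM in the same order (SD, n = 4 each). Lung exceeded kidney in 8 of 8 genes tested, with 64.3% of 13107 genes called, and exceeded liver in 8 of 8, with 62.2% called. Kidney exceeded liver in 5 of 8, with 41.2% called. For H2-DMa, Ciita and H2-Oa the difference between young kidney and young liver did not pass (edgeR adjusted p = 0.163, 0.172 and 0.247). With liver young replicate 1 left out, 4 genes were called. The median over all genes tested was 0.39 for kidney against liver and -0.45 for liver against lung. Of the chain genes, H2-Aa and H2-Eb1 were among those that differed most. The log2 difference for H2-Eb1 was -4.90 ± 0.34 between liver and lung and -2.96 ± 0.30 between kidney and lung (edgeR adjusted p = 1.87e-14 and 1.64e-10). H2-Ab1 differed less, by -3.48 ± 0.36 and -2.42 ± 0.34. The largest fitted difference between liver and lung was that of H2-Oa, -7.25 ± 2.22, which had 0 counts in all young livers.

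The effects themselves were then compared between tissues in the joint fit. That fit, also used for the young tissues above, took the libraries as independent, and the labels do not say which came from 1 mouse. The rise with age was larger in kidney than in lung for 3 of 8 genes, H2-Aa, H2-Ab1 and H2-Eb1, by 1.61 ± 0.48, 1.66 ± 0.50 and 1.53 ± 0.43 on the log2 scale (edgeR adjusted p = 0.0348, 0.0359 and 0.0263, with 8.04% of all genes called). None of these was called without kidney vehicle replicate 3, kidney young replicate 3 or lung vehicle replicate 3, and 1 was without kidney vehicle replicate 4, kidney young replicate 1 or 2, lung vehicle replicate 5 or lung young replicate 2 or 4. It was larger in liver than in lung for 5 of 8, Cd74, H2-Aa, H2-Ab1, H2-DMb1 and H2-Eb1, by 1.77 to 2.51 (11.4% of all genes called). Kidney and liver did not differ beyond the threshold in any of 8 genes (edgeR, 0.786% of all genes called), with 3 at an unadjusted p under 0.05 (11.4%) and 0 by DESeq2 (3.92% of genes with an adjusted p, 7 of the 8 among them).

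The fall with ABT-737 was larger in liver than in lung for Cd74 (difference -2.55 ± 0.48, edgeR adjusted p = 0.0151) and H2-Eb1 (-2.18 ± 0.48, edgeR adjusted p = 0.0371), 2 of 8 genes with 0.290% of all genes called, where the median over all genes was -0.33. Neither was called without liver ABT-737 replicate 4, and 1 of the 2 without liver ABT-737 replicate 3 or 5, liver vehicle replicate 3 or 4, lung ABT-737 replicate 4 or lung vehicle replicate 3 or 5. Between kidney and liver 0 of 8 genes were called (edgeR, 0.0839% of all genes), with 2 at an unadjusted p under 0.05 (7.35%), and between kidney and lung 0 of 8 (edgeR, 0% of all genes), with 6 at an unadjusted p under 0.05 (9.30%). DESeq2 called 0 in both, of 6 with an adjusted p, where it called 0.605% and 0.254% of genes. That the fall was called in kidney and not in lung thus does not show that the tissues differed.

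**Figure D5:**
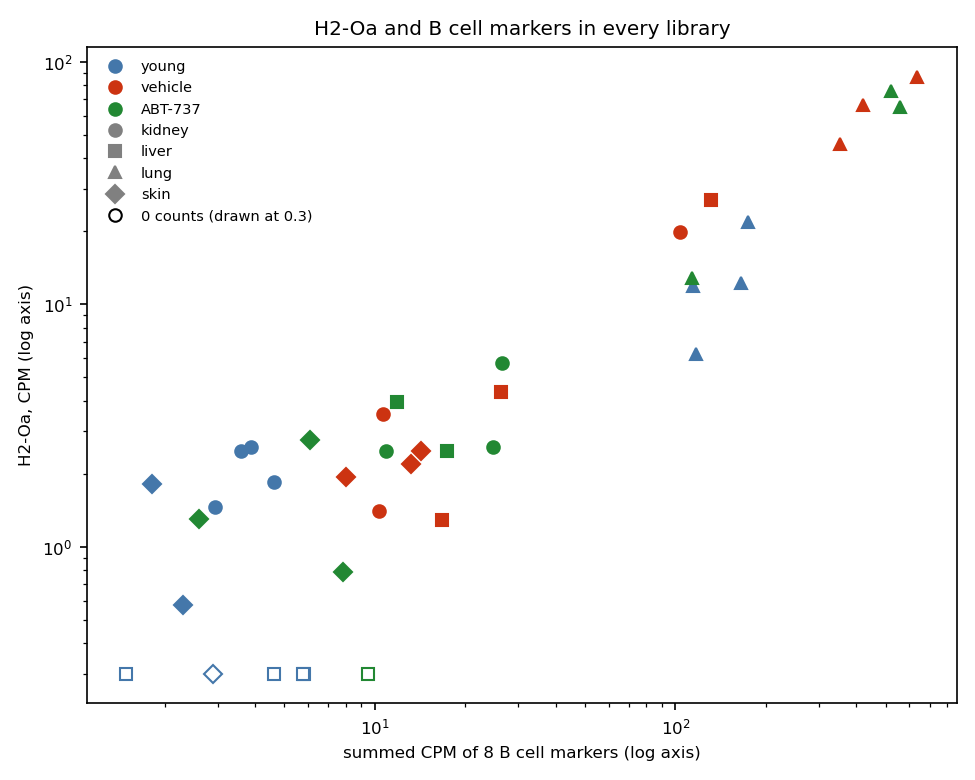
H2-Oa CPM (y axis, log) against the summed CPM of 8 B cell markers (x axis, log) in all 39 libraries, with the group by colour and the tissue by shape. Open symbols at 0.3 are libraries with 0 H2-Oa counts. The single high kidney and liver libraries, both vehicle replicate 4, stand at 103 and 131 CPM of B cell markers.

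In kidney, liver and lung the library with the most H2-Oa was also the one with the most B cell marker RNA, while Cd74 was highest in another library. In skin, where H2-Oa had at most 9 counts, the highest libraries differed. In kidney the summed B cell markers were at 10.6, 103 and 10.3 CPM in vehicle replicates 3, 4 and 5, beside 3.53, 19.8 and 1.41 CPM of H2-Oa. In liver the same libraries had 26.2, 131 and 16.7 CPM of B cell markers beside 4.36, 26.9 and 1.28 CPM of H2-Oa. Cd74 was lower in vehicle replicate 4 than in replicate 3 in both tissues, at 1576 and 2514 CPM in kidney. In lung, ABT-737 replicate 3 had 113 CPM of B cell markers and the other two 557 and 523, beside 12.9, 65.3 and 75.6 CPM of H2-Oa. The 2 libraries that stood apart in kidney and liver carry the same replicate number. The lung library with the most H2-Oa, at 86.6 CPM, was vehicle replicate 4 as well. Whether these libraries came from 1 mouse is not stated in the labels.

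The genes most like the set were ranked by the correlation of log2(CPM + 1), centred in each tissue, with the mean of the class II genes tested. Over the 30 kidney, liver and lung libraries and 5116 other genes, with 6 class II genes in the mean, these were Samhd1 (r = 0.922), Laptm5 (0.919), Fcer1g (0.915), Cd52 (0.911) and Gngt2 (0.909). Laptm5 is one of the pan-leukocyte markers, Fcer1g encodes the common Fc receptor gamma chain of myeloid cells, and Cd52 a surface glycoprotein of leukocytes. Over the 9 skin libraries and 14216 other genes, with 8 class II genes in the mean, they were Hlx (0.985), Rassf4 (0.985), Nhsl2 (0.982), Itgb7 (0.972) and Rgs10 (0.972). The libraries of a tissue share their group differences, so these values describe a ranking and carry no p.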

How the data were processed

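The authors deposited whole-number read counts for each gene, not normalized, in 1 table for kidney, liver and lung (RefSeq transcripts) and another for skin (Ensembl transcripts). The submitters' processing notes name bcl2fastq, HISAT 0.1.5, HOMER and mm10. Whether reads sharing a molecule barcode were collapsed, and whether strand was used in counting, is not given in the sources used here. Without collapsing, counts are not independent molecules.

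The fits used edgeR 4.0.16 (filterByExpr, TMM, quasi-likelihood test) and limma 3.58.1 under R 4.3.3, with the 3 groups of a tissue fitted together and p-values adjusted over all genes tested. Differences between tissues came from 1 fit of the 30 kidney, liver and lung libraries. Kidney replicates varied least (biological coefficient of variation 16.5%), followed by liver (23.5%), lung (31.7%) and skin (34.9%). The labels do not say which samples of different tissues came from 1 mouse, and p-values measure the spread between these samples. The scripts were tested on simulated counts first.

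The class II genes, the gene lists and the tests were chosen with earlier results of these data known. All 9 class II genes are named in every tissue. Of each list, up to 4 genes were to be named by mean count, and the called genes named beyond these were chosen after their values were seen. One gene of the interferon-gamma list is not reported here, so no count is given for that list, and the genes named from it were chosen after their values were seen. The genes most like the set are the 5 with the highest Pearson correlation. The main fits did not use the replicate number, and a block on it was an alternative. In lungs of the 2 old groups, deviations from the group means correlated across genes at 0.176, 0.296 and 0.427 for equal numbers 3, 4 and 5. Lungs of unequal number ran from -0.572 to 0.303, with 0.129 the next highest value. The ranges overlapped, but equal numbers were mostly higher, and so few values cannot settle pairing in lung. In each other tissue at least 1 of the 3 equal-number correlations was below 0.1, and unequal numbers reached 0.323 in kidney and 0.734 in skin. Mice of the 2 old groups share only a number, and whether they formed pairs is not known. No 2 libraries were alike enough to be counted once. Alternatives were DESeq2 1.42.0, its size factors within edgeR, a summed count of 1 as the only filter, a minimum of 10 counts per library, fits of 2 groups alone, the replicate block, each library left out in turn, and, for the ranking, a pseudocount of 0.1 CPM in place of 1. Promoter sequences are from RefSeq (GRCm38.p6) and exons from GENCODE vM21.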

Additional observations from a re-analysis of the deposited data

Results flagged for a closer look

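The effect of age, that is of vehicle-treated against young mice, differed for 5 genes in 1 or more pairs of tissues. The effect of ABT-737 differed for 2. Both counts come from the test of the difference itself in the joint edgeR fit. Over all genes, 8.04% were called for age in kidney against lung, 11.4% for age in liver against lung and 0.290% for ABT-737 in liver against lung. With 1 library left out, the class II genes called ran from 0 to 3, 4 to 6 and 0 to 3 in the same order. For vehicle against young, the log2 fold change in kidney exceeded that in lung by 1.61 for H2-Aa, 1.66 for H2-Ab1 and 1.53 for H2-Eb1. The one in liver exceeded that in lung by 1.93 for Cd74, 2.51 for H2-Aa, 1.77 for H2-Ab1, 2.49 for H2-DMb1 and 2.18 for H2-Eb1. For ABT-737 against vehicle, liver minus lung was -2.55 for Cd74 and -2.18 for H2-Eb1. Young mice started from a higher level in lung than in kidney or liver in all of these genes. Among 23 groups of 4 young libraries, 0 held a library that stood apart from the rest in a class II gene, where chance gives about 1 in 20.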

How the results depend on the processing

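In kidney and liver, each class II gene called for vehicle against young or ABT-737 against vehicle kept its direction and its call under every alternative with all libraries kept in which it was tested. A minimum of 10 counts per library left 4 liver genes to test, all called in both comparisons, since H2-DMa and H2-DMb1 dropped out, and no filter gave 7 or 8 called genes in place of 6 or 7. The replicate number as a block gave 0 genes for vehicle against young in lung (333 of all genes), 0 in skin (0 of all genes) and 0 for ABT-737 against young in kidney (33 of all genes), and 1 for ABT-737 against vehicle in lung (874 of all genes), and it turned H2-DMb1 in ABT-737 against young in lung to -0.0434. Young and old mice share only a number, and the cause was not tested. DESeq2 called 1 gene for ABT-737 against vehicle in lung (342 of all genes), 1 for ABT-737 against young in lung (783), 3 in skin (2116), and 4 for the ABT-737 effect in liver against lung (122). For ABT-737 against young, at least 10 counts in every library gave 0 in kidney (168 of 9085 genes called) and 1 in skin (757 of 10234). No filter gave 1 in lung (805 of 17620) and 3 in skin (1667 of 29019). Only the compared groups gave 2 in kidney (286 of 10806), 1 in liver (1102 of 5110) and 1 in lung (487 of 11318). H2-DMb1 in ABT-737 against young in kidney became -0.00330 with at least 10 counts and -0.0134 with no filter. With 1 library left out, the number of genes called for vehicle against young ran from 7 to 8 in kidney, 6 to 6 in liver, 3 to 5 in lung and 0 to 8 in skin. For ABT-737 against vehicle it ran from 7 to 7, 4 to 6, 0 to 1 and 0 to 0, and for ABT-737 against young from 0 to 2, 0 to 0, 0 to 1 and 0 to 1, in the same order. Between tissues it ran from 0 to 3 for age in kidney against lung, 4 to 6 in liver against lung, 0 to 3 for ABT-737 in liver against lung, and 4 to 5 for young kidney against young liver. Single-gene values that changed sign with 1 library left out were for differences that were not called in the fit with all libraries. Their ranges were -0.71 to 0.36 for Ciita and -0.52 to 0.076 for H2-Ab1 in the age effect of kidney against liver, and -0.56 to 0.042 for H2-Ab1 and -0.82 to 0.088 for H2-Oa in lung with ABT-737 against vehicle. For ABT-737 against young they were -0.10 to 0.43 for H2-Ab1, -0.54 to 0.57 for H2-DMa and -0.15 to 1.04 for H2-DMb1 in liver, -0.24 to 0.28 for H2-DMb1 in kidney and -0.084 to 0.47 in lung. For H2-Oa in the ABT-737 effect they were -0.74 to 3.35 in kidney against liver, -1.17 to 0.85 in kidney against lung and -3.12 to 0.10 in liver against lung. The lists of similar genes in skin had Rtn3 and Psapl1 in place of Itgb7 and Rgs10 with a pseudocount of 0.1. Liver depth limits Ciita, H2-Oa and H2-DMb1, whose counts there were mostly under 10 outside the vehicle group.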
